A study of Homo sapiens with 4 samples.

Results

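The AP-1 subunit genes FOSL1, FOSL2, FOS, FOSB, JUN, JUNB, JUND, ATF3 and BATF3 were followed in single-cell RNA sequencing of H1299 and HCT116 cells. The 9 genes were taken by exact symbol from the deposited gene table, out of 43296 gene names, and the counts of all features of a gene were summed in each library. They were put together with ratios of these libraries in view, so their levels and ratios describe the choice and were not tested. H1299 was established from a human non-small cell lung carcinoma and HCT116 from a human colorectal carcinoma. Control cells of each line received the solvent DMSO, and treated cells received decitabine (DAC), an inhibitor of DNA methyltransferases, at 500 nM for 72 h together with SB939, an inhibitor of histone deacetylases, at 500 nM for 18 h. All cultures were between passage 5 and 10, with fresh medium every 24 h. The treated libraries are called DAC+SB. No library of DAC or SB939 alone was analysed here, so the parts played by the agents cannot be told apart.

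AP-1 is a transcription factor made of a pair of basic leucine zipper (bZIP) proteins. JUN proteins pair with each other or with FOS and some ATF and BATF proteins, whereas FOS proteins need a partner such as a JUN protein. The pairs bind the TPA response element or the closely related cyclic AMP response element (CRE). FOS, FOSB, JUN, JUNB and ATF3 are classical immediate early genes, whose transcripts appear soon after growth factor, stress or cytokine signals and decay fast. FOSL1, which encodes FRA-1, is a longer-lived output of RAS and ERK signalling and is known for its part in invasive and mesenchymal carcinoma cells.

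Only 1 library was made per line and treatment. There is therefore no replicate check of any difference between libraries, and no p-value is given. The treatment and the library preparation therefore cannot be told apart. The H1299 libraries held 3578 cells with DMSO and 3726 with DAC+SB, and the HCT116 libraries 3658 and 4327. Total counts per library lay between 38927267 and 64524196. The HCT116 DAC+SB library stood apart: its median count per cell was 8449, against 15784.5 to 17369.5 in the other 3, and 1086 of its cells had more than 25% mitochondrial counts, against 88 to 364 cells. Counts of transposable elements (TE) were 0.199% and 0.319% of all counts with DMSO and 3.09% and 5.56% with DAC+SB, in H1299 and HCT116. Of all cell barcodes, 131 occurred in more than 1 library. Levels are given as counts per 1000000 gene and TE counts of the library (CPM), and intervals are 95% intervals that cover counting error only. VIM, a mesenchymal marker, stood at 2282 CPM in H1299 DMSO and 47.0 CPM in HCT116 DMSO, and EPCAM, an epithelial marker, at 0.0155 and 80.7 CPM. With DAC+SB, VIM stood at 1151 CPM in H1299 and 265 CPM in HCT116, and EPCAM at 4.47 and 45.2 CPM. The keratin genes KRT8 and KRT18 stood at 96.9 and 255 CPM in H1299 DMSO and at 307 and 676 CPM with DAC+SB. The part of these marker differences in the results was not tested. The lung markers NKX2-1, SFTPB and SFTPC were at 0.817 CPM or less in every library, and the summed epithelial list did not separate the lines. The 7 markers of blood, fibroblast and endothelial cells summed to 0.341 and 12.1 CPM in H1299 and 8.35 and 19.8 CPM in HCT116 (DMSO, then DAC+SB). Of these sums, the fibroblast marker COL1A1 gave 0.124 and 9.43 CPM in H1299 and 8.14 and 18.0 CPM in HCT116.

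FOSL1 (chr11:65892049-65900573, GRCh38) was the most abundant subunit transcript of untreated H1299 cells and the one that fell in both lines. It stood at 303 CPM in H1299 DMSO, 17.7 CPM in H1299 DAC+SB, 75.8 CPM in HCT116 DMSO and 21.4 CPM in HCT116 DAC+SB. The DMSO libraries were thus 4.01-fold apart (3.88 to 4.14), and the DAC+SB libraries 1.21-fold apart (1.10 to 1.32) in the other direction. With DAC+SB the level was 17.1-fold lower in H1299 (16.1 to 18.2) and 3.54-fold lower in HCT116 (3.29 to 3.82). These are log2 ratios of -4.10 and -1.83, and their difference was -2.27 (-2.41 to -2.14).

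The other long-lived FOS relative, FOSL2 (chr2:28392448-28417312), which encodes FRA-2, was low in all 4 libraries. Its level was 20.5 CPM in H1299 DMSO, 16.7 CPM in H1299 DAC+SB, 7.73 CPM in HCT116 DMSO and 13.0 CPM in HCT116 DAC+SB. The log2 ratio was -0.30 in H1299 and 0.75 in HCT116, so neither line passed a 2-fold difference.

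FOS (chr14:75278774-75282230), the classical immediate early partner of JUN, rose in both lines. It stood at 9.66 CPM in H1299 DMSO, 34.3 CPM in H1299 DAC+SB, 46.1 CPM in HCT116 DMSO and 199 CPM in HCT116 DAC+SB. The rise was 3.55-fold in H1299 (3.25 to 3.89) and 4.32-fold in HCT116 (4.14 to 4.51), log2 ratios of 1.83 and 2.11. Treated H1299 cells still held less FOS than untreated HCT116 cells. FOSB (chr19:45467995-45475179), a close relative of FOS, was far lower in H1299 than in HCT116. H1299 gave only 51 counts (0.790 CPM) with DMSO and 100 counts (1.60 CPM) with DAC+SB, against 13.8 CPM in HCT116 DMSO and 10.6 CPM in HCT116 DAC+SB. Its log2 ratio was 1.02 in H1299, with an interval of 0.52 to 1.54 that reached well below 2-fold, and -0.37 in HCT116.

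The promoters of FOS and FOSB are shown because these related genes had like motifs near their starts and unlike ratios in HCT116. They are RefSeq sequences of GRCh38.p14 from 250 bases before the start to 50 bases after it, and capitals mark the shortened CRE motif TGACGT, searched on both strands. RefSeq promoters were matched for 7 of the 9 genes, with a pair of listed starts for ATF3.
FOS, chr14:75278578-75278877, plus strand: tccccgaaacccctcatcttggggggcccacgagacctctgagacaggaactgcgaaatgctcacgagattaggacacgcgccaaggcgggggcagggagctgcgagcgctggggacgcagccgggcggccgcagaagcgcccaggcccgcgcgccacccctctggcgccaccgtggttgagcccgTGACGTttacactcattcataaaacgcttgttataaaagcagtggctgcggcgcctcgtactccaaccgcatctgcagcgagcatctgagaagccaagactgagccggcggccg
FOSB, chr19:45467746-45468045, plus strand: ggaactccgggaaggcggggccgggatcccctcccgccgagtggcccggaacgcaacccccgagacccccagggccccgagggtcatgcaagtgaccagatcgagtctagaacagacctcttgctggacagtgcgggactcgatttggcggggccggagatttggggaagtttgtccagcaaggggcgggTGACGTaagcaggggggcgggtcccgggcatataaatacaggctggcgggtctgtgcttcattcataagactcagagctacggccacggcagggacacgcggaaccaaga
The motif began 64 bases before the start in FOS and 60 bases before it in FOSB, and the TATA motif TATAAA began 33 and 30 bases before it. FOSL2 also held TGACGT, beginning 66 bases before its start, without TATAAA, so TGACGT is not particular to FOS and FOSB. Over 35093 promoters of the same length, 7.98% held TGACGT and 11.5% held TATAAA on either strand. The FOS and FOSB windows held 30 and 23 CpG dinucleotides, against a median of 14 over all promoters. A match describes the letters only.

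The JUN family moved less than FOS and differed between the lines. JUN (chr1:58780788-58784327), the founding partner of the family, stood at 46.9 CPM in H1299 DMSO, 56.4 CPM in H1299 DAC+SB, 68.2 CPM in HCT116 DMSO and 193 CPM in HCT116 DAC+SB. It rose 2.84-fold in HCT116 (2.73 to 2.94) and was 1.20 times its DMSO level in H1299 (1.15 to 1.26), log2 ratios of 1.504 and 0.27. JUNB (chr19:12791496-12793315), a weaker activator that can restrain JUN, stood at 32.8, 45.6, 80.5 and 150.1 CPM in the same order of libraries. Its log2 ratios were 0.47 in H1299 and 0.90 in HCT116. JUND (chr19:18279760-18281622), which is expressed in resting cells and is the least inducible JUN gene, went the other way. It stood at 30.7 CPM in H1299 DMSO, 67.5 CPM in H1299 DAC+SB, 47.3 CPM in HCT116 DMSO and 39.4 CPM in HCT116 DAC+SB. It rose 2.20-fold in H1299 (2.08 to 2.32), and its log2 ratio in HCT116 was -0.26. The difference between the lines in log2 ratio was -1.24 for JUN (-1.33 to -1.15) and 1.40 for JUND (1.28 to 1.52).

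The promoters of JUN and JUND are shown because these members had the opposite order in the lines. Capitals mark the CRE-type motif TGACNTCA and the shortened motif TGACGT, which can overlap it, on either strand.
JUN, chr1:58783998-58784297, minus strand: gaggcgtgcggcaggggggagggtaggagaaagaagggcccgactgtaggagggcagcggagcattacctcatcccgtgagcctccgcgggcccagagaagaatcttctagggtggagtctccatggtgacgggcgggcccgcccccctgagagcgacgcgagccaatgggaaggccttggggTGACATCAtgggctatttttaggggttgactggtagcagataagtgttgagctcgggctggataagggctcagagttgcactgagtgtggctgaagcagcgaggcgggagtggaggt
JUND, chr19:18281573-18281872, minus strand: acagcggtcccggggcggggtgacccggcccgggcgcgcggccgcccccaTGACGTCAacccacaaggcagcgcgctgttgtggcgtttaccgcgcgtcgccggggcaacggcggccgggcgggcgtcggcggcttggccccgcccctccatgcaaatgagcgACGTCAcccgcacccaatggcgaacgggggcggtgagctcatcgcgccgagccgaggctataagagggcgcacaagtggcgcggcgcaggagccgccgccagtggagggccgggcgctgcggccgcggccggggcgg
JUN held TGACATCA beginning 67 bases before the start. JUND held the palindrome TGACGTCA beginning 200 bases before the start and the shortened motif on the other strand, as ACGTCA, 87 bases before it. The JUNB window held neither motif. TGACNTCA occurred in 7.72% of all promoters. The JUND window held 49 CpG dinucleotides and the JUN window 16.

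ATF3 and BATF3 share a stretch of chromosome 1 but not a pattern. ATF3 (chr1:212565334-212620777), a stress-induced gene whose protein pairs with JUN proteins, stood at 6.54 CPM in H1299 DMSO, 23.7 CPM in H1299 DAC+SB, 30.9 CPM in HCT116 DMSO and 133 CPM in HCT116 DAC+SB. It rose 3.62-fold in H1299 (3.25 to 4.04) and 4.30-fold in HCT116 (4.08 to 4.53). The log2 ratios of 1.86 and 2.10 lie beside those of FOS, and the order of the 4 libraries was also that of FOS, JUN and JUNB. BATF3 (chr1:212686418-212699985), which is known from dendritic cells and lymphoma, stood at 3.02 CPM in H1299 DMSO, 4.85 CPM in H1299 DAC+SB, 7.15 CPM in HCT116 DMSO and 2.83 CPM in HCT116 DAC+SB. It fell 2.53-fold in HCT116 (2.05 to 3.15), and its log2 ratio in H1299 was 0.68 (0.42 to 0.95). The H1299 DMSO and HCT116 DAC+SB levels of BATF3 were the only neighbours, in the order of any member's 4 levels, that did not differ beyond counting error.

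One of the ATF3 windows is shown since it held a CRE-type motif, in capitals, of the same letters as the JUN motif.
ATF3, chr1:212565157-212565456, plus strand: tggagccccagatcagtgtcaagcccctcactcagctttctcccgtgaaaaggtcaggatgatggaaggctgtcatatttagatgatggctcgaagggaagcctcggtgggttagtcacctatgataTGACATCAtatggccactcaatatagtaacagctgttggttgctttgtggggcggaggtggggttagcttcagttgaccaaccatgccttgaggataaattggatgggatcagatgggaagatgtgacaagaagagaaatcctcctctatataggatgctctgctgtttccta
The motif TGACATCA began 123 bases before this start. The window held 4 CpG dinucleotides. The window at the other listed ATF3 start held 1 CpG and neither CRE motif. That start directly follows the letters tttcag, as the end of an intron can read, so the window may not be a promoter. No further ATF3 start was searched, so these windows need not hold every promoter of the gene. The canonical AP-1 motif TGANTCA was found in 1 of the members' windows, that of FOSL2, as TGACTCA starting 4 bases after the start, and in 7.71% of all promoters.

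**Figure D1:**
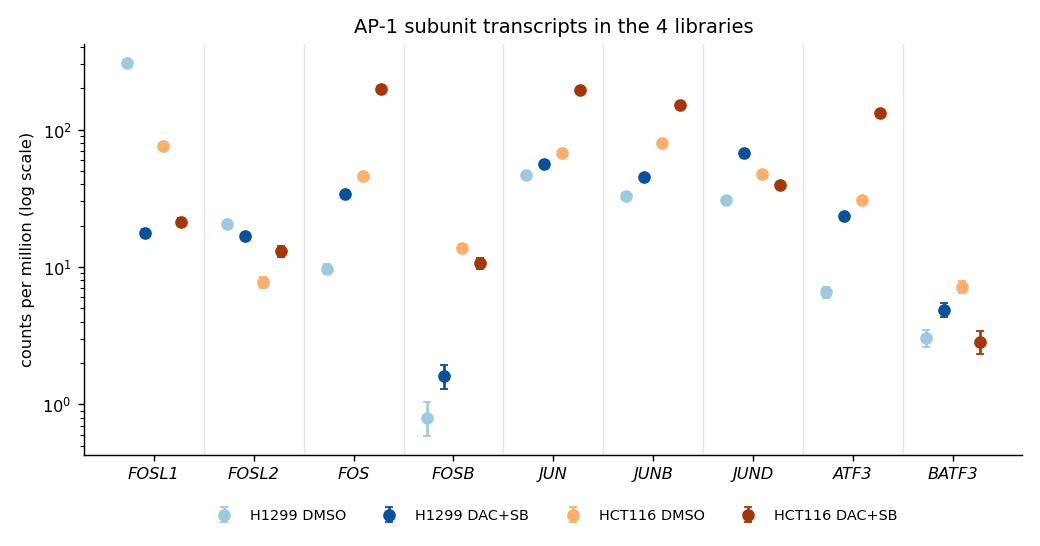
Level of each AP-1 subunit gene in CPM, on a log axis, in the 4 libraries. Points are the summed counts of 1 library and bars are 95% Poisson intervals, often smaller than the point. FOSL1 was highest in H1299 DMSO at 303 CPM, whereas FOS, JUN, JUNB and ATF3 were highest in HCT116 DAC+SB.

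In H1299, 4 of the 9 genes were at least 2-fold higher with DAC+SB (FOS, FOSB, JUND and ATF3), where 18.3% of all 14610 tested genes were (those whose higher library held at least 100 counts), and 1 was at least 2-fold lower (FOSL1), where 7.34% were. In HCT116, 3 were higher (FOS, JUN and ATF3), with 16.2% of 13539 genes, and 2 were lower (FOSL1 and BATF3), with 20.0%. All 9 members met this minimum in both lines. At least 4-fold differences were found for FOSL1 in H1299 (lower, with 0.349% of genes) and for FOS and ATF3 in HCT116 (higher, with 9.63%). No member was 4-fold higher in H1299, where 11.0% of genes were, or 4-fold lower in HCT116, where 3.69% were. At 1.5-fold, 5 members were higher in H1299, where 24.9% of genes were, and 5 in HCT116, where 22.7% were. The median log2 ratio of the members was 0.68 in H1299 and 0.75 in HCT116, and that of all such genes -0.07 and -0.23. With the all-gene median of HCT116 set to 0, JUNB passed 2-fold with a log2 ratio of 1.13, JUND came to -0.03, and no member changed sign. On that scale 2611 HCT116 genes were at least 2-fold higher and 1865 lower, in place of 2192 and 2706. The members were chosen on these contrasts, so nothing is read from their counts.

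The log2 ratio was higher in H1299 than in HCT116 by at least 1 for FOSB (1.39), JUND and BATF3 (2.02), where 15.3% of 12644 genes were. It was lower by at least 1 for FOSL1, FOSL2 (-1.05) and JUN, where 7.77% were. FOS, ATF3 and JUNB had differences of -0.28, -0.25 and -0.43.

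**Figure D2:**
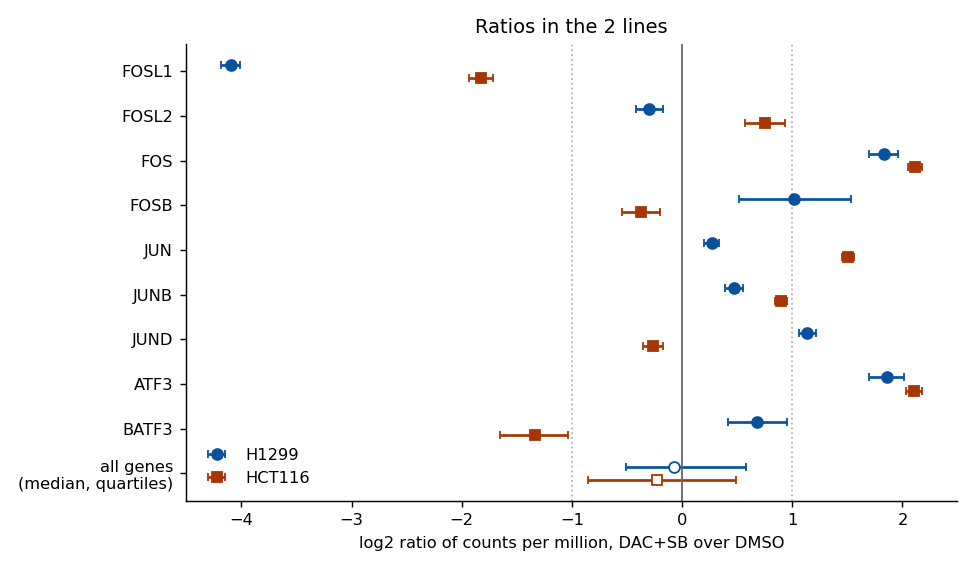
Log2 ratio of CPM, DAC+SB over DMSO, for each gene in H1299 (circles) and HCT116 (squares), with 95% counting intervals. Open symbols show the median and quartiles of all genes with at least 100 counts, and dotted lines mark 2-fold. FOS and ATF3 lie together on the right in both lines and FOSL1 has the lowest ratio in each line, at -4.10 and -1.83, followed in HCT116 by BATF3 at -1.34.

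The lines also differed from each other, without and with treatment. Under DMSO, FOSL1 and FOSL2 were at least 2-fold higher in H1299 than in HCT116 (log2 ratios 2.002 and 1.41), where 20.5% of 13796 genes were. FOS (-2.26), FOSB (-4.12), JUNB (-1.29), ATF3 (-2.24) and BATF3 (-1.24) were at least 2-fold lower, where 15.2% were. With DAC+SB no member was at least 2-fold higher in H1299, where 25.4% of 14875 genes were. The 5 lower members were then FOS (-2.54), FOSB (-2.73), JUN (-1.78), JUNB (-1.72) and ATF3 (-2.49), where 12.1% were. These comparisons use the same libraries as the ratios above and add no separate evidence.

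The makeup of the subunit transcripts turned over in H1299. FOSL1 made up 66.8% of the counts of the 9 genes in untreated H1299 cells (66.2 to 67.3) and 6.60% in treated ones (6.23 to 6.99). In HCT116 its share was 20.1% with DMSO and 2.80% with DAC+SB. In H1299 the 9 genes summed to 454 CPM with DMSO and 268 CPM with DAC+SB, whereas it was 377 and 763 CPM in HCT116. Without FOSL1 the sums were 151 and 251 CPM in H1299 and 302 and 741 CPM in HCT116, so that the other 8 genes together were higher with DAC+SB in both lines. By subfamily, the FOS genes of H1299 held 73.6% of the counts with DMSO and 26.2% with DAC+SB, and the JUN genes 24.3% and 63.2%. In HCT116 the FOS genes held 38.0% and 32.0% and the JUN genes 51.9% and 50.2%. ATF3 and BATF3 together went from 2.10% to 10.6% in H1299 and from 10.1% to 17.8% in HCT116.

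Per kilobase of annotated exons, FOSL1 led in H1299 DMSO with 74.0% of the summed level. JUND led in H1299 DAC+SB with 33.7%, ahead of JUNB with 23.3%. JUNB led in HCT116 with 28.2% under DMSO and 30.7% with DAC+SB, followed in the treated library by FOS with 22.9% and JUN with 20.3%. Libraries read from the 5′ end give counts that need not grow with length, so neither scale settles the order between genes. By counts alone FOSL1, JUND and JUNB also led in the first 3 libraries, and FOS led in HCT116 DAC+SB with 26.1%.

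**Figure D3:**
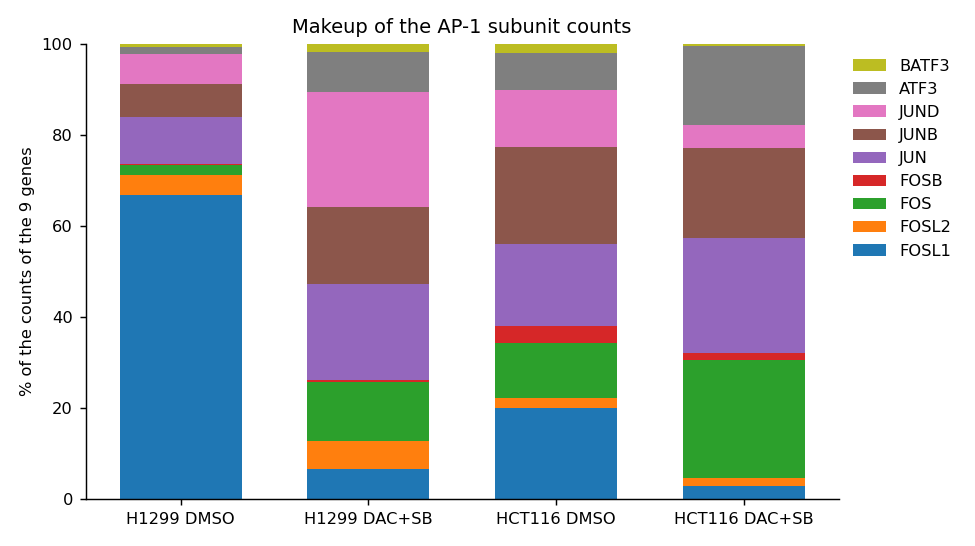
Share of each gene in the summed counts of the 9 AP-1 subunit genes, in percent, as 1 stacked bar per library. The FOSL1 segment takes 66.8% of the H1299 DMSO bar and at most 20.1% of the other 3, and JUND takes 25.1% of the H1299 DAC+SB bar.

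Several members have more than 1 feature in the deposited table, an unnumbered one and numbered ones whose meaning no source used here gives. Both listed FOSL1 features fell in both lines: the log2 ratio was -3.99 for the unnumbered feature and -4.80 for feature 1 in H1299, and -1.48 and -2.25 in HCT116. Feature 1 shrank from 39.9% to 24.6% of FOSL1 counts in H1299, while in HCT116 it shrank from 51.6% to 38.5%. The unnumbered feature grew from 60.1% to 64.6% in H1299 and from 48.4% to 61.5% in HCT116, so all numbered features together shrank. Over all genes the share of counts in numbered features went the other way, from 61.9% to 65.3% in H1299 and, in HCT116, from 68.2% to 73.3%. A further FOSL1 feature, number 2, was listed only in H1299 DAC+SB, with 119 counts in 90 cells, which is 10.8% of the gene's counts there. Its listing lowers the share of feature 1 in that library. The lowest count of any listed numbered feature was 10, so a feature that is not listed is not known to be at 0.

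Feature 1 of FOS went from 49.6% to 56.2% of the gene's counts in H1299 and, in HCT116, from 63.5% to 72.2%, and that of ATF3 from 46.9% to 54.9% and from 64.9% to 71.8%. The FOS and ATF3 shares moved in the direction of all genes, as did those of JUNB feature 1 (37.5% to 40.9% and 64.4% to 68.0%). Feature 1 of JUN made up 34.7% and 34.3% in H1299, and 49.3% and 51.0% in HCT116. That of BATF3 went from 26.2% to 15.5% in H1299 and, in HCT116, from 27.7% to 34.5%. Feature 1 of FOSB was listed in HCT116 only, where its log2 ratio was 0.22 (-0.15 to 0.58) and that of the unnumbered feature -0.54 (-0.74 to -0.34). FOSL2 and JUND had no numbered feature.

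The members were also counted cell by cell. Each cell was thinned to 3300 counts by a random draw, which left out 402 HCT116 DAC+SB cells that were shallower. A FOSL1 count was found in 56.2% of untreated and 4.59% of treated H1299 cells, and in 19.7% and 6.34% of HCT116 cells. FOS counts were found in 2.82% and 10.8% of H1299 cells and in 13.1% and 38.8% of HCT116 cells. ATF3 counts were found in 1.76%, 6.66%, 8.58% and 30.2% of cells in the library order used for JUNB, and the FOS shares have the same rank order. JUND was the member found in most cells of H1299 DAC+SB, at 19.0%, against 8.999% with DMSO. Without thinning, FOSL1 was found in 91.1% of H1299 DMSO cells. The libraries held no cell type known to lack these genes, so the share that free RNA would give was not measured.

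Cells with no count of any member made up 28.0% of H1299 cells with DMSO and 44.2% with DAC+SB, and 33.4% and 16.8% of HCT116 cells. Cells with at least 2 members made up 24.0%, 18.4%, 28.98% and 51.6%. The treated HCT116 library was thus the one in which most cells held several subunit transcripts at this depth.

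**Figure D4:**
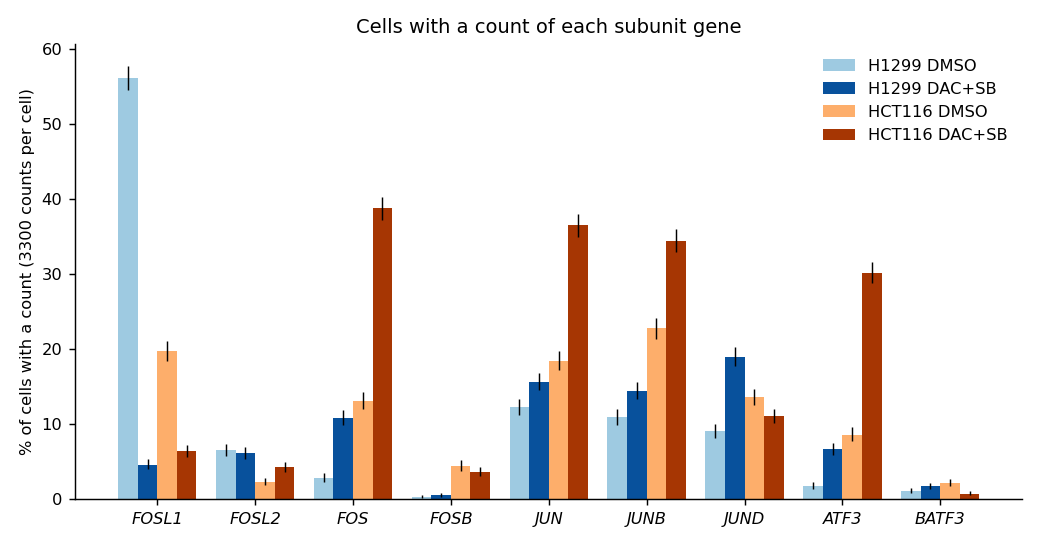
Share of cells, in percent, with at least 1 count of each gene after thinning to 3300 counts per cell, in the 4 libraries. Bars start at 0 and lines are exact 95% binomial intervals. FOSL1 stands at 56.2% in H1299 DMSO, and FOS, JUN, JUNB and ATF3 stand above 30% only in HCT116 DAC+SB.

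Within HCT116 DAC+SB, a small group of cells held much FOS and JUN. At 3300 counts per cell, 60 cells (1.53%) had 5 or more FOS counts, and they held 18.7% of the FOS counts. A further 519 cells had 2 to 4 FOS counts, so the limit of 5 cuts a range and does not mark a cell type. The mean JUN count was 5.52 in the 60 cells, 1.11 in the 519 cells and 0.530 in the 2404 cells without FOS. Of the 88 cells with 5 or more JUN counts, 26 also had 5 or more FOS counts. In the other 3 libraries, FOS reached 5 counts in 1 cell, of HCT116 DMSO, and JUN in 6 cells. The highest thinned count in a cell of HCT116 DAC+SB was 53 for FOS and 51 for JUN, and the variance over the mean was 3.55 and 4.07. The 60 cells had a median of 7489.5 counts and 17.4% mitochondrial counts, against 9224.5 and 18.0% in cells without FOS. This group was looked at after its values were seen.

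Cells of each library were also divided by their TE share into 3 equal parts. Intervals of such cell splits leave out the spread between cells. Over thinned cells of HCT116 DAC+SB, the variance over the mean was 3.55 for FOS and 4.07 for JUN. Levels in this and the next paragraph are per 1000000 gene counts other than mitochondrial ones, a scale chosen after seeing the data, because TE and mitochondrial counts stand in the CPM denominator and would lower every other gene in cells rich in them. In H1299 DAC+SB, FOSL1 stood at 14.9 in the cells with the highest TE share and 23.6 in those with the lowest (0.632 times, 0.540 to 0.738). BATF3 was 0.623 times its level (0.454 to 0.848). FOSB (1.86 times, 1.06 to 3.34, 37 against 21 counts), JUNB (1.24 times), FOSL2 (1.18 times, 1.01 to 1.37) and JUND (1.08 times, 1.01 to 1.17) were higher, while FOS, JUN and ATF3 did not differ beyond counting error. In HCT116 DAC+SB, JUN stood at 196 in the lowest and 363 in the highest part (1.85 times, 1.75 to 1.95). JUNB was 1.89 times, FOSB 1.64 times, BATF3 1.62 times (1.02 to 2.60), ATF3 1.54 times, FOSL1 1.37 times and FOS 1.36 times as high. On this scale, JUNB and FOSB were thus higher in the highest part of both treated libraries, and FOSL1 and BATF3 were lower in H1299 and higher in HCT116. With CPM, BATF3 in HCT116 DAC+SB (1.42 times, 0.890 to 2.27, 42 against 37 counts) was within counting error. So were FOSL2 (1.12 times, 0.956 to 1.31) and JUND (1.03 times, 0.957 to 1.11) in H1299 DAC+SB. The highest part of HCT116 DAC+SB also had fewer counts per cell (median 7406 against 9823.5) and more mitochondrial counts (21.0% against 16.3%), and their part in these differences was not tested. With DMSO, where TE counts were low, the members that differed beyond counting error in HCT116 were all higher in the highest part: FOSB 1.53 times, JUND 1.25 times, JUN 1.24 times and FOSL1 and ATF3 1.20 times each. In H1299 DMSO, ATF3 was 1.39 times, JUNB 1.34 times and JUN 1.18 times as high, and FOSL1 was 0.888 times its level in the lowest part.

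On the same scale, JUN was higher in cells with more than 25% mitochondrial counts than in the other cells of each library. It was 1.86 times as high in H1299 DMSO (1.52 to 2.25), 1.53 times in H1299 DAC+SB (1.21 to 1.92), 1.17 times in HCT116 DMSO (1.06 to 1.29) and 1.79 times in HCT116 DAC+SB (1.69 to 1.89). In HCT116 DAC+SB, FOSB was 1.77 times, ATF3 1.54 times, JUNB 1.45 times and FOS 1.37 times as high, and JUND 0.765 times (0.643 to 0.905). The HCT116 DAC+SB cells above 25% had fewer counts per cell (median 4214.5 against 9810) and a higher median TE share (5.83% against 4.62%). The part of depth and TE share in these ratios was not tested. In HCT116 DMSO, FOS was 1.25 times and FOSL1 1.11 times as high (1.004 to 1.22). In H1299, FOSL1 was 1.14 times as high with DMSO and JUNB 1.88 times with DAC+SB. No other member differed beyond counting error. With CPM, whose denominator holds the mitochondrial counts, JUND was 0.608 to 0.730 times as high in the 4 libraries. JUN then stood at 1.14 times (0.896 to 1.42) in H1299 DAC+SB and 0.927 times (0.836 to 1.03) in HCT116 DMSO. Both JUN values were within counting error, so its higher level in these libraries depends on the scale. Without the cells above 25%, the JUN log2 ratio of CPM in HCT116 was 1.40, that of FOS 2.09 and that of ATF3 2.01.

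The lists of related genes are set beside all genes tested, of which 18.3% were at least 2-fold higher and 7.34% lower in H1299 (median log2 ratio -0.07), and 16.2% higher and 20.0% lower in HCT116 (median -0.23). The first list holds other bZIP genes whose proteins can pair with AP-1 subunits. Of 19 genes, 16 had enough counts in each line, and 2 were at least 2-fold higher and none lower in H1299 (median log2 ratio 0.03), while 2 were higher and 2 lower in HCT116 (median -0.27). Each count of 2 is 12.5% of the list, below the share of all genes in the same direction. BATF2, an interferon-responsive relative of BATF3, had a log2 ratio of 2.46 in H1299 and was under the minimum in HCT116. CEBPB, a regulator of inflammatory and acute phase genes, had 1.37 in H1299 and -0.06 in HCT116. CREB5, which binds the CRE, had 0.29 in H1299 and was among the higher ones in HCT116 (4.95). The lower ones in HCT116 were JDP2 (-1.34, with 0.79 in H1299), a repressor that pairs with JUN, and ATF4 (-1.32, with -0.98 in H1299), the factor of the integrated stress response.

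Of other immediate early genes, 15 of 30 were at least 2-fold higher in HCT116 and 2 lower, with a median log2 ratio of 1.10. These are 50% and 6.67% of the list, against 16.2% and 20.0% of all genes, whose median was -0.23. In H1299, 7 of 27 were higher and 4 lower, with a median of 0.12, which are 25.9% and 14.8% against 18.3% and 7.34% of all genes. The difference between the lines was not tested. ARC, an activity-induced gene of neurons, went from 5 to 566 counts in H1299 (log2 ratio 6.87) and, in HCT116, from 532 to 5904 (4.16). CTGF, a matricellular target of YAP and TGF-beta, had log2 ratios of 2.27 and 4.31. IER3, a stress-induced survival gene, had log2 ratios of 1.65 and 0.56, and NR4A3, an orphan nuclear receptor, 1.46 and 3.74. ZFP36L1, whose protein promotes decay of AU-rich transcripts, fell in both lines (-1.95 and -2.27). KLF10 (-1.68), a repressor induced by TGF-beta, and MYC (-1.21), the growth regulator, fell in H1299 and had log2 ratios of -0.64 and -0.82 in HCT116. PHLDA1 fell in both lines (-1.03 and -2.72).

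Among kinases and factors of the ERK and JNK routes to AP-1, none of 21 genes was at least 2-fold higher in H1299 and 2 were lower, NRAS (-1.07) and ELK3 (-1.18), with a list median of -0.26. The lower ones are 9.52% of the list, against 7.34% of all genes. None of 20 was higher in HCT116 and 7 were lower, with a median of -0.85. The lower ones are 35.0% of the list, against 20.0% of all genes with a median of -0.23. ELK3, an ETS factor that works with SRF, fell by 2.12 on the log2 scale, and the ETS factor ELK1 by 1.45. NRAS fell there too (-1.08), and ELK1 had a log2 ratio of -0.90 in H1299.

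Of genes that report ERK output, 7 of 15 were at least 2-fold lower and none higher in H1299, and 5 of 16 lower and 2 higher in HCT116. The lower genes are 46.7% of the list in H1299, against 7.34% of all genes, and 31.2% in HCT116, against 20.0%. The list medians were -0.76 and -0.67, against -0.07 and -0.23 for all genes. The feedback inhibitor SPRY4 (-2.40 and -1.90), the ETS factor ETV1 (-1.11 and -2.19), the cyclin gene CCND1 (-1.24 and -2.60) and PHLDA1 fell in both lines. The feedback inhibitor SPRY2 fell in H1299 (-1.91), with -0.54 in HCT116. The membrane protein gene EMP1 fell in H1299 (-2.78) and was under the minimum in HCT116. In HCT116 the feedback inhibitor SPRY1 rose (1.24, with 0.69 in H1299), as did the chemokine gene CXCL8 (2.79), which was under the minimum in H1299. PHLDA1 also stands among the immediate early genes above, and CCND1 and CXCL8 among the targets below.

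Textbook AP-1 target genes went both ways. Of 31 genes, 7 were at least 2-fold higher and 7 lower in H1299 (median log2 ratio -0.02), and 8 higher and 11 lower in HCT116 (median -0.17). In H1299, 22.6% of the list was higher and 22.6% lower, against 18.3% and 7.34% of all genes. In HCT116 the shares were 25.8% and 35.5%, against 16.2% and 20.0%. Like the other lists, this one was chosen with earlier results of these data known, and those named PLAU and AXL. Its shares are therefore not independent of these data. PLAU, the urokinase gene, fell from 5730 to 419 counts in H1299 (-3.73) and, in HCT116, from 2480 to 88 (-4.13). AXL, a receptor tyrosine kinase gene of mesenchymal cells, had log2 ratios of -3.26 and -3.36. HMGA2, a chromatin protein gene, fell in both lines (-2.73 and -3.14). EREG, an EGF receptor ligand gene, fell in HCT116 (-3.29) and was under the minimum of 100 counts in H1299. AREG, another EGF receptor ligand gene, had no count in H1299 with DMSO and 1081 counts with DAC+SB, so that with 3 counts in place of 0 its log2 ratio was at least 8.54, and it was 2.25 in HCT116. IL11, a cytokine gene, rose in both lines (4.37 and 2.99). GJA1, a gap junction gene, rose in H1299 (5.76) and was under the minimum in HCT116. The collagenase gene MMP1 rose in H1299 (3.002) and went from 1 to 209 counts in HCT116 (8.39, 5.90 to 13.70) and the stromelysin gene MMP10 from 3 to 157 counts (6.40, 4.82 to 8.69), while MMP10 was under the minimum in H1299.

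**Figure D5:**
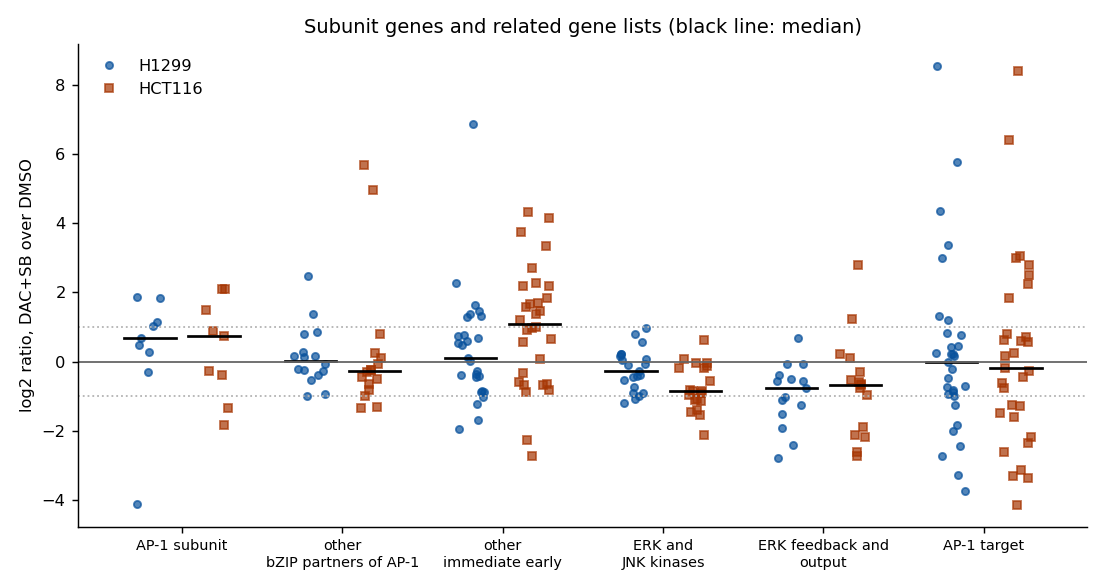
Log2 ratio of CPM, DAC+SB over DMSO, of each gene that met the minimum of 100 counts, for the 9 subunit genes and 5 related lists, in H1299 (circles) and HCT116 (squares). Black lines are list medians and dotted lines mark 2-fold. The median of the other immediate early genes is 0.12 in H1299 and 1.10 in HCT116, and the AP-1 targets spread from -4.13 to values above 8.

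Likeness to a member was measured as the Euclidean distance between profiles of log2(CPM + 1) over the 4 libraries, each centred on its own mean, over 15496 genes. The 5 genes nearest to FOSL1 were UTP20 (1.13), NUDT19 (1.21), PLAU (1.40), ZNF367 (1.45) and NDUFV2 (1.46). By fold, their falls between the H1299 libraries were all smaller than that of FOSL1, and their falls between the HCT116 libraries all larger. PLAU went from 39.6 to 2.26 CPM in HCT116, and FOSL1 from 75.8 to 21.4 CPM. UTP20, for example, stood at 34.4, 5.05, 19.1 and 2.93 CPM in the order used above. NDUFV2 had 53850 further counts under names that join it with another gene. Among the genes nearest to ATF3 were RAB3A (0.33), RET (0.39), CEBPA (0.40) and SPINK2 (0.41). RET and SPINK2 had no count in H1299 DMSO. RAB3A, a vesicle trafficking gene, stood at 3.04, 11.1, 12.02 and 54.4 CPM. The genes nearest to JUN, RNU5F-1 (0.07), PLEKHD1 (0.07), CHST1 (0.13), RP11-18I14.11 (0.13) and ADGRD1 (0.16), all had fewer than 500 counts in every library. Adding 1 CPM flattens such low levels, so nearness to JUN need not mean ratios like its own. PLEKHD1 stood at 0.0775 CPM in H1299 DMSO and 3.55 CPM in HCT116 DAC+SB, and JUN at 46.9 and 193 CPM. With 4 points per profile, many genes also lie near any shape.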

How the data were processed

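RNA of 4 libraries was sequenced with the 5′ chemistry of 10x Genomics, per the labels' protocols. The authors deposited whole-number counts of genes and of TE, each as a feature, a cell and a count. Cell names carry their library. The submitters' processing notes name STAR, CASAVA, GRCh38 and hg38, without roles. No source used here gives the counting tool, the annotation, the cell filter, the strand setting or whether counts are molecules.

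Counts were summed per gene and library over features naming 1 gene and divided by gene plus TE counts. The table also holds 2419 names that join genes, none holding a subunit gene. Levels carry exact Poisson intervals, ratios exact conditional binomial intervals, shares exact Clopper-Pearson intervals (95% each) and line differences intervals from a normal approximation. They cover counting error only, at 38927267 to 64524196 counts per library. All 15289 cells were used, without a doublet caller. Each cell was thinned to 3300 counts (hypergeometric draw, depth set by the shallowest library's 10th percentile). A gene at 0 was set to 3 counts. Ratios of at least 2-fold were counted among genes whose higher library held at least 100 counts. Exon lengths and gene positions are from GENCODE 29 (GRCh38), matched by symbol. Python 3.11.15, numpy 2.4.6, pandas 2.3.3 and scipy 1.17.1 were used. The ratio step was run on simulated Poisson counts of 40877 genes, with 200 genes of at least 200 DMSO counts changed 4-fold in each line. All of them passed the 2-fold limit (100%). Such counts hold no spread between libraries or cells, so this recovery checks the arithmetic only. FOSB (51 counts) and BATF3 (195 counts) in H1299 DMSO lay below that count minimum.

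The members and gene lists were chosen with earlier results of these data known. All 9 members were named. From each other list, the 3 genes with the highest and the 3 with the lowest log2 ratio past 2-fold in each line were named, and the 5 genes nearest to FOSL1, JUN and ATF3. Some genes that this rule names are not reported here. Levels by TE or mitochondrial share of the cell are per gene counts other than mitochondrial, which was chosen after seeing the data. Alternatives changed the denominator, the centring, the joined names, the numbered features, the cells kept, the weight of cells, the fold and the count minimum.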

Additional observations from a re-analysis of the deposited data

Results flagged for a closer look

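For 4 members the log2 ratio, DAC+SB over DMSO, had opposite signs in the lines, with both intervals clear of 0. FOSL2 had -0.30 in H1299 and 0.75 in HCT116, a difference of -1.05. FOSB had 1.02 and -0.37, a difference of 1.39. JUND had 1.14 and -0.26, a difference of 1.40, and BATF3 0.68 and -1.34, a difference of 2.02. Opposite signs occurred in 24.7% of 12644 genes, a share counted without the condition on intervals. With 1 library per group, none of these differences was tested, and the negative HCT116 values of FOSB and JUND lie near the all-gene median of -0.23.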

How the results depend on the processing

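No member's ratio in a line or difference between the lines changed sign under any alternative that was run. For FOSL1 in H1299 the log2 ratio was -4.26 with numbered features used only where listed in both libraries, -4.21 without the 5% of cells with most counts and -4.27 with each cell weighted the same. In HCT116 it was -1.69 with mitochondrial and ribosomal protein genes left out of the denominator and -1.59 with the all-gene median set to 0. FOSB in H1299 came to 1.00 without the 5% of cells with most counts, just under 2-fold, which left 3 higher members. At a 4-fold limit, 0 members were higher in H1299 and 0 lower in HCT116, and at 1.5-fold 5 were higher in each line, where 24.9% of H1299 genes and 22.7% of HCT116 genes were. Over all genes, the 4-fold limit gave 1612 higher and 51 lower in H1299 and 1304 and 500 in HCT116, and no count minimum gave 10771 and 5441 in H1299 and 12255 and 4142 in HCT116. The cell splits were also run with mitochondrial and TE counts in the denominator, an alternative chosen after seeing the data. Among ratios of cells above 25% mitochondrial counts to the others that lay beyond counting error, FOSL1 in H1299 DMSO turned below 1 (0.865). So did FOSL1 (0.879), FOS (0.990) and JUN (0.927) in HCT116 DMSO. That denominator holds the counts that split the cells. Ratios within counting error also crossed 1 in both splits, such as FOSL1 in HCT116 DAC+SB by mitochondrial share (1.16 to 0.923). No paired analysis was possible because each group has 1 library and no replicate could be left out. Depth limits FOSB in H1299 (51 and 100 counts) and BATF3 in HCT116 DAC+SB (110 counts) most.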
